A study of Mus musculus with 7 samples.

Results

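The NF-κB subunits and feedback inhibitors comprised 10 genes, chosen by name: the 5 subunits Nfkb1, Nfkb2, Rel, Rela and Relb, the classical inhibitors Nfkbia and Nfkbie, the atypical inhibitor-like proteins Nfkbiz and Bcl3, and the ubiquitin-editing enzyme Tnfaip3. They are 10 of the 53465 genes in the count table, each was found by its symbol, and all 10 passed the filter on low counts. RNA came from tumors of EMT6, a mammary carcinoma line of the mouse, grown from 500000 cells placed in the mammary fat pad of female BALB/c mice aged 6 to 8 weeks. The 3 EMT6-P (parental) tumors grew under an IgG isotype antibody, and the 3 EMT6-PTR tumors, whose labels name a resistant variant (there written PDR), grew under αPD-L1. Both antibodies were given at 250 μg per mouse every 3 days from day 1 to the institutional endpoint. The remaining library is a single metastasis of the resistant variant, also under αPD-L1, and its labels do not name the organ. The methods describe P and PTR variants as taken from primary tumors of treated mice, so that variant and antibody changed together and cannot be told apart. Each library is called a tumor here after its label, but the sources do not state that the 3 libraries of a group came from separate mice, and replicates may be technical. The question for these genes was whether the pathway's subunits and its inducible brakes differed between resistant and parental tumors.

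NF-κB is a family of dimeric transcription factors that carry signals from cytokine, Toll-like and antigen receptors to inflammatory and survival genes. In resting cells the dimers are held in the cytoplasm by IκB proteins. Signaling through the IκB kinase complex destroys the IκB proteins and frees RelA, c-Rel and p50 in the classical arm, while the noncanonical arm processes p100 to p52 and frees RelB. Freed dimers switch on the genes of several of their own subunits and inhibitors, so that transcripts such as Nfkbia and Tnfaip3 rise within an hour of signaling and then shut it off. In breast tumors the pathway is active in carcinoma cells, macrophages, neutrophils and stroma alike.

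Because these genes can be targets of the factor that they encode or inhibit, the sequence around their start sites is shown first. Promoter windows of 300 bases, from RefSeq annotation of GRCm38.p6, were found for 7 of the 10 genes, with 10 windows in all. There was none for Nfkb1, Relb and Nfkbiz. The NF-κB consensus decamer, searched on both strands, occurred in 8.46% of all 32851 windows and in 8 of the 10 windows of these genes. By gene it occurred in 9.55% of 27025 genes and in 6 of the 7, Rela being without it. Nfkb2 had 3 windows, of which overlapping ones hold the same match, so the counts by window are not independent. A second pattern that overlaps the decamer, GGG and TTTCC with any 2 bases between them on either strand, occurred in 1.63% of all windows and in 6 of the 10, and in Nfkb2, Rel, Nfkbia and Tnfaip3 by gene. The sequences below are the 250 bases upstream of the start of Nfkbia, the member with the highest level per length, and windows of 30 bases around matches in the other 5 genes, 5′ to 3′ in the direction of the gene, with the matched bases in capitals. Where matches overlap, the capitals cover both.
Nfkbia, chr12:55492648-55492897, minus strand, match at position -29 from the start: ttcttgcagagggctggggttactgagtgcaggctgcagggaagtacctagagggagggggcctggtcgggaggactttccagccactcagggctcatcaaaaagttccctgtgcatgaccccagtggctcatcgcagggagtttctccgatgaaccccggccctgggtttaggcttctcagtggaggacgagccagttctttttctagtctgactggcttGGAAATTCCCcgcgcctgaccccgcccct
Tnfaip3, chr10:19015403-19015432, minus strand, match at position -12: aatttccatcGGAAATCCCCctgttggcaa
Tnfaip3, chr10:19015516-19015545, minus strand, match at position -125: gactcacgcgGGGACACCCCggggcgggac
Rel, chr11:23771042-23771071, minus strand, match at position -92: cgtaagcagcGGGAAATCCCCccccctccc
Nfkb2, chr19:46304688-46304717, plus strand, match at position -39 from the most upstream start: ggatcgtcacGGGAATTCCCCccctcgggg
Nfkb2, chr19:46305695-46305724, plus strand, match at position 11 from an internal start: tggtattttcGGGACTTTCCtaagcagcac
Nfkbie, chr17:45555584-45555613, plus strand, match at position -106: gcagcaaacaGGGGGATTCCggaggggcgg
Bcl3, chr7:19822734-19822763, minus strand, match at position 3: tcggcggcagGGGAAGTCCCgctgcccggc
The matches of Nfkbia, Rel and Nfkbie lay upstream of the annotated gene, those of Tnfaip3 inside the gene but outside its exons, and those shown for Nfkb2 and Bcl3 in annotated exons. A match describes letters in a window and is neither a bound site nor a cause, and a window without one says nothing of the factor.

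The libraries held 20430110 to 25213472 estimated counts, and the 10 genes had between 259 (Rel in EMT6-PTR replicate 3) and 17356 counts (Nfkbia in the metastasis) per library. Levels are given as CPM, counts divided by library size, on an upper-quartile scale over the 7 libraries. The spread of counts was larger in EMT6-PTR than in EMT6-P, with common dispersions of 0.246 and 0.0266. On the CPM scale the SD was also larger in EMT6-PTR for all 10 genes. In EMT6-PTR replicate 2 a single gene, CT010467.1, took 13.8% of all counts, against 0.433% to 1.35% in the other libraries. EMT6-PTR replicate 3 stood apart in its makeup. There 8 markers of mammary and carcinoma epithelium, led by Krt8, summed to 617.3 CPM against 2405 to 2726 in the other 5 primary tumors. It was the lowest of the 6 for 4 of the 8, beside 34.5% of all genes, namely Krt8, Krt18, Krt14 and Cdh1. Krt19, Krt7, Krt5 and Epcam lay within the range of the other 5. Its 9 fibroblast markers summed to 21480 CPM against 5811 to 9541. That sum was led by Col3a1 (9089 CPM against 735.3 to 2004), while Col1a1 at 2755 CPM lay within the parental range and Thy1 at 6.68 CPM lay below the 63.1 to 114.3 CPM of the other 5. The metastasis held 3025 CPM of 8 neutrophil markers, led by S100a9, against 25.1 to 60.6 in the 6 primary tumors, and 8474 CPM of 6 lung markers, against 1.45 to 26.1. Of the lung markers Ager was the highest in the primary tumors, and Scgb1a1, at 2957 CPM, in the metastasis. In no marker list was a gene at 0 in all primary tumors. Their part in the values below was not tested, and in bulk tissue fewer cells of a type and less RNA per cell cannot be told apart.

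Between the 3 resistant and the 3 parental tumors, no member passed the test. Across all 15645 genes edgeR's quasi-likelihood test called 0 genes (0%) after Benjamini-Hochberg adjustment, with no adjusted p below 0.421. An unadjusted p under 0.05 was found for 1 of the 10 members (Rela) and for 1786 of all genes (11.4%). DESeq2 called 138 genes higher and 143 lower, none of them a member, and limma-voom called 0. Of the members, 5 had a log2 fold change above 0, namely Nfkb1, Rel, Nfkbia, Nfkbiz and Tnfaip3, beside 52.3% of all genes. The median log2 fold change was -0.06 over the members and 0.03 over all genes.

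**Figure D1:**
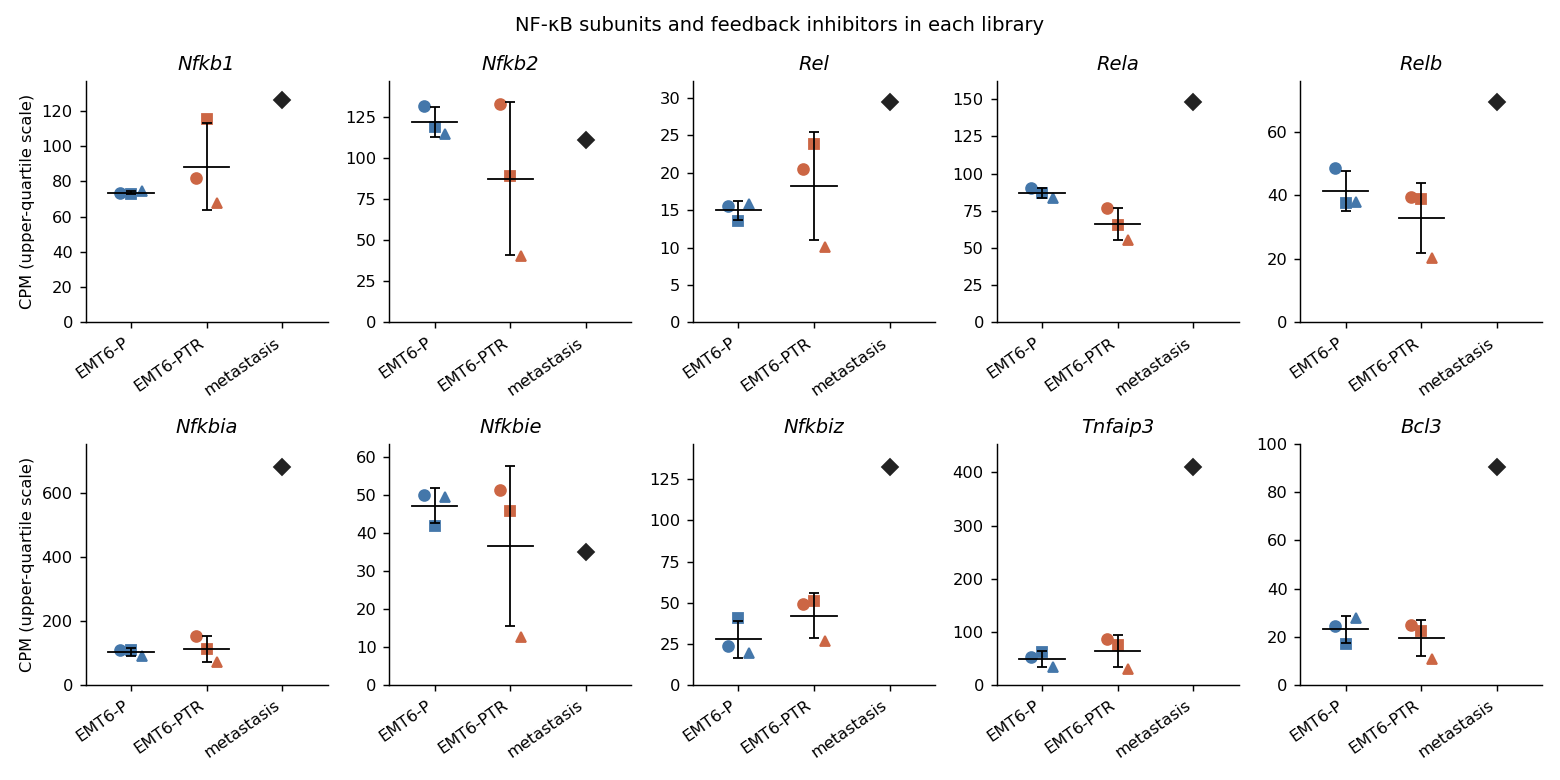
Level of each of the 10 genes in CPM (linear axis from 0) in EMT6-P tumors, EMT6-PTR tumors and the metastasis. Circles, squares and triangles are replicates 1, 2 and 3, the diamond is the metastasis, horizontal bars are means and whiskers are the SD of 3 tumors. The triangle of EMT6-PTR is the lowest point of the 6 primary tumors in 9 panels, and the diamond lies highest in 8.

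Among the subunits, Rela was the only one whose groups did not overlap. Rela encodes RelA (p65), the main transactivating subunit of the classical arm (ENSMUSG00000024927.7, chr19:5637483-5648130, plus strand). Its level was 90.4, 87.1 and 83.4 CPM in EMT6-P replicates 1 to 3 and 77.1, 65.5 and 55.5 CPM in EMT6-PTR replicates 1 to 3. All 3 resistant tumors thus lay below all 3 parental ones, as for 11.8% of all genes. Counted in either direction the groups were apart for 1 of the 10 members, beside 21.3% of all genes, and in the higher direction for 0 members, beside 9.52%. The Rela values gave means of 86.9 ± 3.50 and 66.0 ± 10.8 CPM (SD, n = 3 each). The log2 fold change of -0.40 (SE 0.15) had an unadjusted p of 0.0392 and an adjusted p of 0.433 in edgeR's quasi-likelihood test. It ranged from -0.53 to -0.29 when each tumor was left out in turn.

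Nfkb1 encodes p105 and its processed form p50, the usual partner of RelA (ENSMUSG00000028163.17, chr3:135584655-135691547, minus strand). It was nearly constant in EMT6-P, at 73.5, 72.5 and 74.5 CPM, and took 82.0, 115.3 and 67.7 CPM in EMT6-PTR. Replicates 1 and 2 lay above the parental tumors and replicate 3 below them, so the groups overlapped. The means were 73.5 ± 0.952 and 88.3 ± 24.4 CPM, with a log2 fold change of 0.26 (SE 0.21, adjusted p = 0.608, edgeR's quasi-likelihood test), which became 0.03 without EMT6-PTR replicate 2. Rel encodes c-Rel, a transactivating subunit most abundant in lymphoid and myeloid cells (ENSMUSG00000020275.9, chr11:23736847-23770970, minus strand). Its level was 15.6, 13.5 and 15.8 CPM in EMT6-P and 20.6, 23.9 and 10.1 CPM in EMT6-PTR. The pattern was that of Nfkb1, with 2 resistant tumors above and replicate 3 below all parental ones. The means were 15.0 ± 1.27 and 18.2 ± 7.19 CPM and the log2 fold change was 0.28 (SE 0.32, adjusted p = 0.727, edgeR's quasi-likelihood test), or 0.04 without EMT6-PTR replicate 2.

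The noncanonical subunits were lowest in resistant replicate 3, and Nfkb2 was below the parental range in replicate 2 as well. Nfkb2 encodes p100, which is both a precursor of p52 and an inhibitor of RelB (ENSMUSG00000025225.14, chr19:46304320-46312385, plus strand), and it overlaps Psd on the opposite strand. With the strand setting of the counting not given in the sources used here, reads of Psd in its values and in its ratio to Nfkb1 cannot be told apart. It measured 132.0, 119.0 and 114.5 CPM in EMT6-P and 133.0, 89.4 and 40.4 CPM in EMT6-PTR. The first resistant tumor was the highest of the 6 primary tumors and the third the lowest. The means were 121.9 ± 9.07 and 87.6 ± 46.3 CPM, and the log2 fold change of -0.48 (SE 0.40, adjusted p = 0.633, edgeR's quasi-likelihood test) ran from -0.92 without EMT6-PTR replicate 1 to -0.13 without replicate 3. Relb encodes RelB, the partner of p52 (ENSMUSG00000002983.17, chr7:19606217-19629438, minus strand). It stood at 48.8, 37.5 and 37.8 CPM in EMT6-P and at 39.6, 39.0 and 20.3 CPM in EMT6-PTR, where replicates 1 and 2 lay within the parental range. Its means were 41.4 ± 6.41 and 33.0 ± 11.0 CPM and its log2 fold change was -0.33 (SE 0.28, adjusted p = 0.639, edgeR's quasi-likelihood test), or -0.075 without EMT6-PTR replicate 3.

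Both classical inhibitors were highest in resistant replicate 1 and lowest in resistant replicate 3 among the primary tumors. Nfkbia encodes IκBα, the inhibitor that is resynthesized after each round of signaling (ENSMUSG00000021025.8, chr12:55489410-55492647, minus strand). It reached 109.9, 111.2 and 90.2 CPM in EMT6-P and 154.2, 112.7 and 73.8 CPM in EMT6-PTR. The resistant tumors spanned the whole parental range, with replicate 1 the highest and replicate 3 the lowest of the 6. Means of 103.8 ± 11.7 and 113.6 ± 40.2 CPM gave a log2 fold change of 0.13 (SE 0.27, adjusted p = 0.858, edgeR's quasi-likelihood test), whose sign turned without EMT6-PTR replicate 1 (-0.16). Nfkbie encodes IκBε, a slower inducible inhibitor of RelA and c-Rel (ENSMUSG00000023947.7, chr17:45555703-45563169, plus strand). Its levels were 50.1, 41.8 and 49.6 CPM in EMT6-P and 51.4, 45.9 and 12.6 CPM in EMT6-PTR. Replicates 1 and 2 were at the parental level and replicate 3 was far below it, the widest gap below the parental mean of any member in any library (-1.89 on the log2 scale). The means were 47.2 ± 4.63 and 36.7 ± 21.0 CPM, and the log2 fold change of -0.36 (SE 0.48, adjusted p = 0.760, edgeR's quasi-likelihood test) became 0.045 without EMT6-PTR replicate 3.

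The atypical members Nfkbiz and Bcl3 act in the nucleus, where IκBζ and BCL-3 bind p50 or p52 and alter which genes are transcribed. Nfkbiz (ENSMUSG00000035356.16, chr16:55811375-55838899, minus strand) had 23.6, 40.7 and 19.6 CPM in EMT6-P and 49.2, 50.9 and 26.5 CPM in EMT6-PTR. Resistant replicates 1 and 2 exceeded every parental tumor, while replicate 3 lay inside the parental range. Its means were 28.0 ± 11.2 and 42.2 ± 13.6 CPM, and its log2 fold change of 0.59 (SE 0.36, adjusted p = 0.528, edgeR's quasi-likelihood test) had the largest size of the 10 and ran from 0.40 without EMT6-P replicate 3 to 0.96 without EMT6-P replicate 2. Bcl3 (ENSMUSG00000053175.17, chr7:19808462-19822770, minus strand) overlaps the antisense genes Gm16175 and Gm16174, and the same uncertainty of strand holds for its reads. It had 24.5, 16.9 and 28.0 CPM in EMT6-P and 24.8, 22.6 and 10.8 CPM in EMT6-PTR, with only resistant replicate 3 outside the parental range. Means of 23.2 ± 5.69 and 19.4 ± 7.52 CPM gave a log2 fold change of -0.26 (SE 0.35, adjusted p = 0.773, edgeR's quasi-likelihood test), or 0.033 without EMT6-PTR replicate 3.

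Tnfaip3 encodes A20, the ubiquitin-editing enzyme that dismantles signaling complexes upstream of the IκB kinases (ENSMUSG00000019850.11, chr10:19000910-19015657, minus strand). It had 52.5, 62.0 and 33.4 CPM in EMT6-P and 87.2, 74.7 and 30.2 CPM in EMT6-PTR. As for Nfkb1 and Rel, replicates 1 and 2 lay above all parental tumors and replicate 3 below them. The means were 49.3 ± 14.6 and 64.0 ± 30.0 CPM, and the log2 fold change of 0.38 (SE 0.42, adjusted p = 0.716, edgeR's quasi-likelihood test) ran from 0.082 without EMT6-PTR replicate 1 to 0.72 without replicate 3.

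For 8 of the 10 members the log2 fold change between the groups was smaller than the SD among the resistant tumors, Rela and Nfkbiz being the exceptions. EMT6-PTR replicate 3 was the lowest of the 6 primary tumors for 9 of the 10, Nfkbiz being the exception, beside 34.5% of all genes. It was the highest for 0 of the 10, beside 32.7% of all genes. Relative to the parental mean the median of the 10 members on the log2 scale was 0.14, 0.06 and -0.65 in resistant replicates 1 to 3, where the median over all genes was 0.00 in each. The largest deviations in replicate 3 were those of Nfkbie (-1.89), Nfkb2 (-1.59), Bcl3 (-1.06) and Relb (-1.01). This tumor is also the one with the low epithelial and high fibroblast marker sums given above. Its macrophage marker sum of 2014 CPM lay below the 2496 to 3324 CPM of the other 5. The most abundant of these markers, Lyz2, had 476.4 against 787.3 to 1392 CPM. Replicate 3 was the lowest of the 6 for 6 of the 10 macrophage markers, beside 34.5% of all genes, while C1qc was highest there (404.8 CPM). The part of these markers in the low values was not tested. Without EMT6-PTR replicate 3, edgeR's quasi-likelihood test gave 4 members an unadjusted p under 0.05 with higher levels (Nfkb1, Rel, Nfkbiz and Tnfaip3), beside 8.8% of all genes, and 1 with a lower level (Rela), beside 11.5%. In that fit the log2 fold changes were 0.42 for Nfkb1, 0.57 for Rel, 0.84 for Nfkbiz, 0.72 for Tnfaip3 and -0.29 for Rela. None passed after adjustment, the smallest adjusted p being 0.133 (Rel), so with 2 resistant tumors the direction of these genes was again not separated from the spread.

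**Figure D2:**
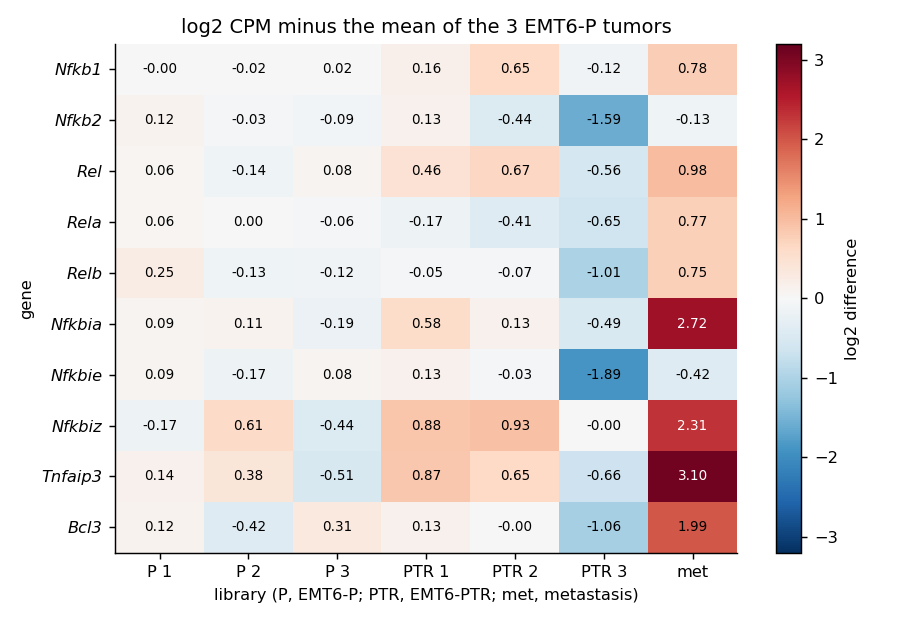
Difference in log2 CPM from the mean of the 3 EMT6-P tumors for each gene (rows) in each library (columns), printed in the cells and colored from blue (lower) to red (higher). The column of EMT6-PTR replicate 3 is blue or white throughout, down to -1.89 for Nfkbie, and the metastasis column reaches 3.10 for Tnfaip3.

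**Figure D3:**
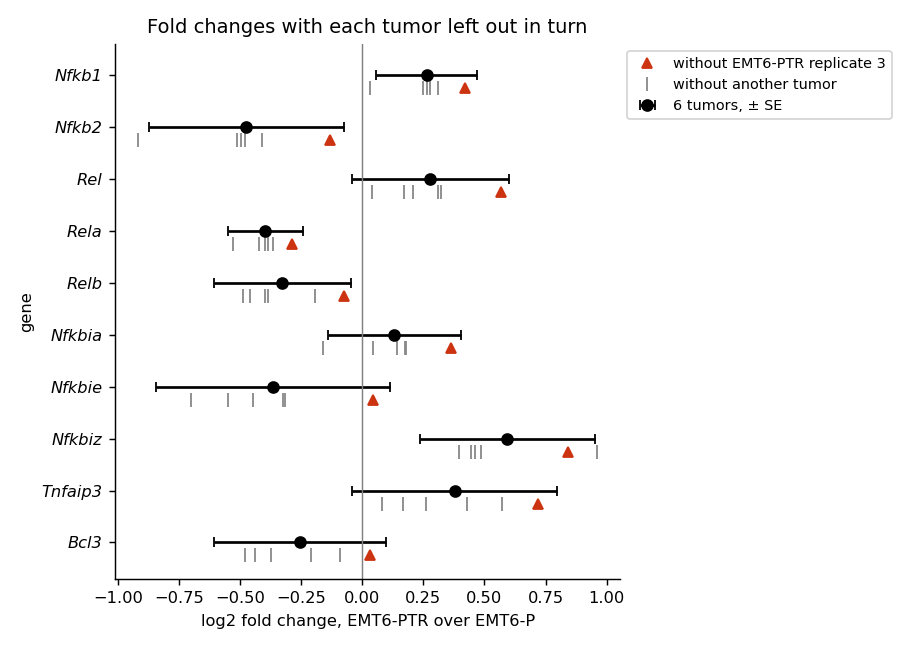
Log2 fold change of EMT6-PTR over EMT6-P with all 6 tumors (black points, whiskers ± SE) and with each tumor left out in turn (gray ticks, red triangles where EMT6-PTR replicate 3 is left out). The triangles lie to the right of the black point for all 10 genes and pass 0 for Nfkbie (0.045) and Bcl3 (0.033).

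Ratios between members within a library do not depend on scaling between libraries, and 3 were compared. The ratio of Nfkbia to Rela, an inhibitor over the subunit that it binds, was 1.22, 1.28 and 1.08 in EMT6-P and 2.00, 1.72 and 1.33 in EMT6-PTR. Rela was itself lower in every resistant tumor (log2 fold change -0.40), while Nfkbia overlapped between the groups (0.13). In the ratio all resistant tumors, replicate 3 included, lay above all parental ones, by 0.48 on the log2 scale of the group means. The exact two-sided permutation test over the 20 assignments of 6 tumors gave p = 0.1, the smallest that 3 against 3 tumors can reach, and 0.3 after Benjamini-Hochberg adjustment over the 3 ratios. The ratio of Nfkb2 to Nfkb1, the precursors of p52 and p50, was 1.80, 1.64 and 1.54 in EMT6-P. It was 1.62, 0.775 and 0.597 in EMT6-PTR, so that replicate 1 lay within the parental range and replicates 2 and 3 below it (log2 difference -0.86, exact permutation p = 0.2, adjusted p = 0.3). The ratio of Relb to Rela was 0.540, 0.431 and 0.454 in EMT6-P and 0.514, 0.596 and 0.366 in EMT6-PTR, with no direction (log2 difference 0.03, exact permutation p = 1). In the metastasis the ratios were 4.60 for Nfkbia to Rela, 0.880 for Nfkb2 to Nfkb1 and 0.467 for Relb to Rela. Only the first of these lay outside the range of the primary tumors.

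**Figure D4:**
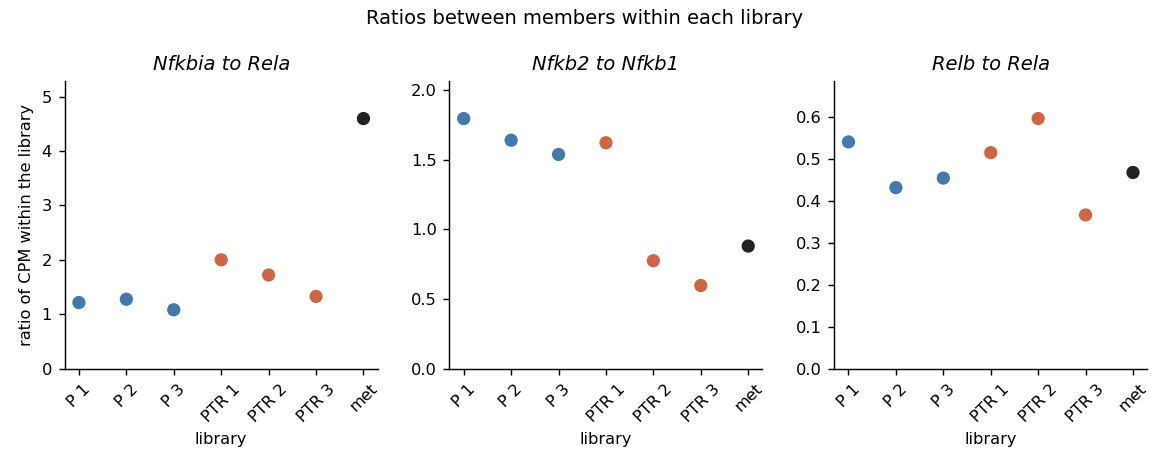
Ratio of CPM of 2 members within each library (linear axes from 0) for Nfkbia to Rela, Nfkb2 to Nfkb1 and Relb to Rela, with EMT6-P in blue, EMT6-PTR in orange and the metastasis in black. The Nfkbia to Rela ratio is 1.08 to 1.28 in EMT6-P, 1.33 to 2.00 in EMT6-PTR and 4.60 in the metastasis.

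In the metastasis Tnfaip3, Nfkbia, Bcl3 and Nfkbiz were far above every primary tumor, and the subunits were nearer to the primary levels. There is 1 metastasis, so these are values without a test. Tnfaip3 stood at 409.3 CPM, 7.03-fold the geometric mean of the 3 EMT6-PTR tumors and 4.70-fold the highest primary tumor (87.2 CPM). Nfkbia stood at 682.1 CPM, 6.27-fold the resistant mean and 4.42-fold the highest primary tumor (154.2 CPM). Bcl3 was at 90.4 CPM, 4.94-fold and 3.23-fold, respectively. These 3 members were at least 4-fold above the resistant mean, beside 9.83% of all 18619 genes. Those 18619 genes passed a filter over all libraries that enough counts in 1 library, such as the metastasis, could satisfy. All 10 members also passed the filter over the primary tumors. Nfkbiz was at 132.4 CPM (3.27-fold the resistant mean), Rela at 148.3 CPM (2.27-fold) and Relb at 69.3 CPM (2.19-fold). In all, 6 of the 10 members were at least 2-fold above the resistant mean, beside 18.7% of all genes, and 0 were at least 2-fold below, beside 9.3%. Rel at 29.5 CPM (1.72-fold) and Nfkb1 at 126.0 CPM (1.46-fold) also lay above all 6 primary tumors, which makes 8 of 10 members beside 24.8% of all genes. Nfkb1 exceeded its highest primary tumor by a factor of 1.09 only.

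Nfkb2 and Nfkbie did not share this pattern. Nfkb2 at 110.9 CPM and Nfkbie at 35.1 CPM lay within the range of the primary tumors, below most of them, at 0.834 and 0.682 of the highest. Their differences from the resistant mean, 0.50 and 0.18 on the log2 scale, were smaller than the SD of the resistant tumors (0.87 and 1.12), and without EMT6-PTR replicate 3 they were 0.02 and -0.47. The median difference of the metastasis from the resistant mean was 1.16 over the 10 members and 0.03 over all genes. Against the mean of all 6 primary tumors, an alternative chosen after seeing the data, 4 members remained at least 2-fold higher, Rela (0.98) and Relb (0.94) lay just under 1 on the log2 scale, and Nfkbie turned to -0.12. The high values of Nfkbia, Nfkbiz, Tnfaip3 and Bcl3 came with the neutrophil and lung marker sums given above and with 998.6 CPM of 7 endothelial markers, led by Pecam1, against 138.3 to 176.0 in the primary tumors. Of the 7 endothelial markers, Emcn alone went the other way: at 8.37 CPM in the metastasis it lay below all 6 primary tumors. Hemoglobin transcripts were high in the metastasis too. Hbb-bs had 3735 CPM against 12.4 to 165.5 in the primary tumors, and Hba-a1 had 1186 CPM against 5.01 to 51.1. The part of blood and of these cell types was not tested, and the organ, the tumor cells and the infiltrating cells cannot be told apart in 1 library.

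Per length of exon, Nfkbia had the highest level of the 10 in every group. In EMT6-P it had 64.4 ± 7.28 CPM per kb (SD, n = 3), followed by Rela at 28.3 ± 1.14, Nfkb2 at 26.6 ± 1.98, Nfkbie at 15.5 ± 1.52 and Relb at 10.7 ± 1.65 CPM per kb. Bcl3 (9.35 ± 2.30), Tnfaip3 (6.82 ± 2.02), Nfkb1 (6.09 ± 0.0789), Nfkbiz (5.57 ± 2.23) and Rel (2.01 ± 0.170 CPM per kb) followed. Neighbors whose tumors did not overlap were Nfkbia and Rela, Nfkb2 and Nfkbie, Nfkbie and Relb, and Nfkbiz and Rel, while Rela and Nfkb2, and each neighboring pair from Relb to Nfkbiz, overlapped. In the metastasis the order changed: Nfkbia had 423.7 CPM per kb, Tnfaip3 came next at 56.6, then Rela at 48.3, Bcl3 at 36.5, Nfkbiz at 26.4 and Nfkb2 at 24.2 CPM per kb. With the length of the transcript with the longest coding sequence in place of all exons, a choice made after seeing the data, Nfkb2 preceded Rela in EMT6-P (38.8 against 32.0 CPM per kb) and Nfkb1 moved from place 8 to 6. In the metastasis Nfkbia and Tnfaip3 then still took places 1 and 2.

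Other genes of the pathway were as little separated between the primary groups as the members, and many were higher in the metastasis. Of 128 other genes of the pathway, in 6 lists that partly overlap, 123 were tested, of which 0 passed after adjustment, 7 had an unadjusted p under 0.05 with a higher and 3 with a lower level in EMT6-PTR (beside 5.84% and 5.57% of all genes), and the median log2 fold change was 0.04. In the metastasis 50 of the 127 genes with enough counts were at least 2-fold above the resistant mean, beside 18.7% of all genes. At least 2-fold below were 4, beside 9.3%, and the median difference was 0.56 on the log2 scale. The 127 passed the filter over all libraries, which counts in the metastasis alone could satisfy.

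**Figure D5:**
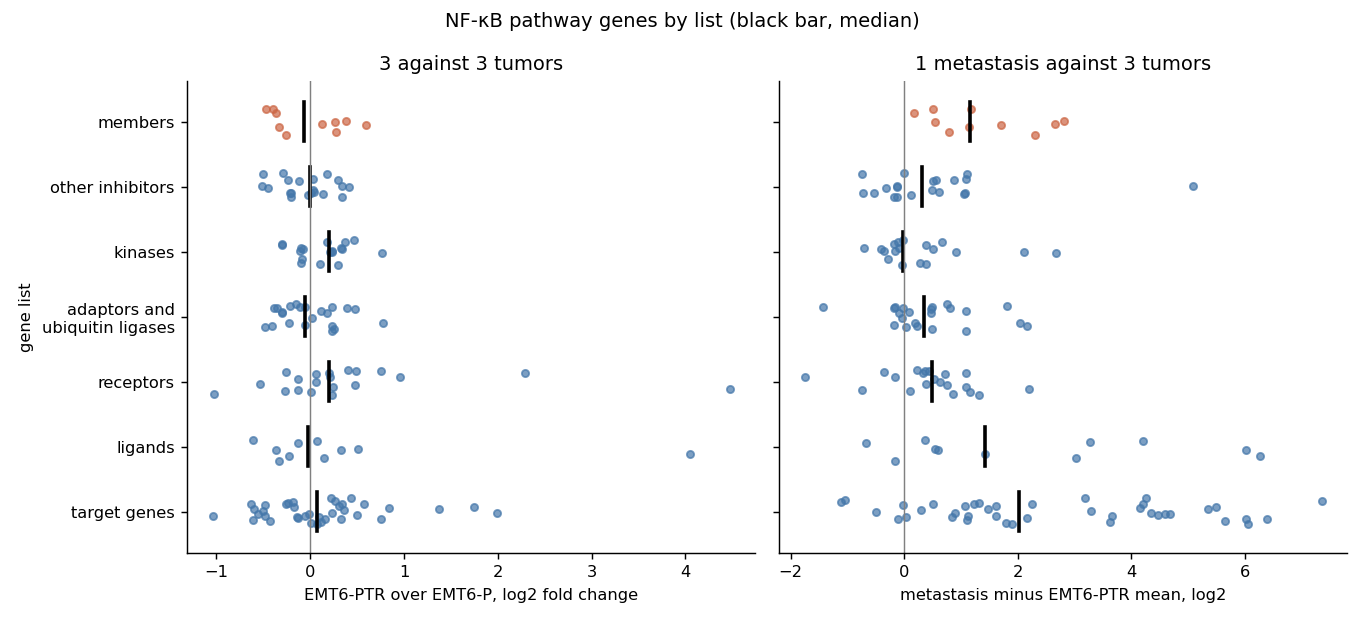
Log2 fold change of EMT6-PTR over EMT6-P (left) and log2 difference of the metastasis from the mean of 3 EMT6-PTR tumors (right) for each gene (points) of the 10 members (orange) and 6 other pathway lists (blue), with black bars at the medians. On the left the medians lie between -0.06 and 0.20, and on the right the target genes (2.03), the ligands (1.42) and the members (1.16) lie highest.

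Upstream of the members, no receptor or ligand passed after adjustment, although the largest log2 fold changes of the 6 lists were found there. Of 20 receptors, 14 had a log2 fold change above 0 and 3 an unadjusted p under 0.05, all higher (beside 52.3% and 5.84% of all genes). Il18r1, a chain of the interleukin 18 receptor, had 1.46, 0.796 and 0.611 CPM in EMT6-P and 9.03, 33.2 and 21.8 CPM in EMT6-PTR. It lay higher in all 3 resistant tumors (log2 fold change 4.47, SE 0.60, adjusted p = 0.421, edgeR's quasi-likelihood test). Tnfrsf13c, the receptor for BAFF (2.29), and Tlr9, a sensor of unmethylated DNA (0.96), were the others. Of 10 tested ligands, 5 lay above and 5 below 0. Il33, an alarmin of the interleukin 1 family, had 4.97, 3.70 and 6.30 CPM in EMT6-P and 12.2, 53.1 and 182.1 CPM in EMT6-PTR. Its groups did not overlap either, and unlike the members it was highest in EMT6-PTR replicate 3 (log2 fold change 4.04, SE 0.96, adjusted p = 0.421, edgeR's quasi-likelihood test). Tnfsf13b, which encodes BAFF, had a log2 fold change of -0.36 and Ltb, a lymphotoxin chain, of 0.51.

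Of 18 kinases, 11 lay above 0, with a median of 0.20, and 2 had an unadjusted p under 0.05, both higher: Map3k3 (0.37) and Map3k7, which encodes TAK1 (0.34). The shares over all genes are again 52.3% and 5.84%. Map3k8, the kinase that p105 holds inactive, had a log2 fold change of 0.77 and was 6.42-fold higher in the metastasis than the resistant mean. Of 22 adaptors and ubiquitin ligases, 10 lay above 0. The adaptor of the TNF receptor Tradd had the smallest unadjusted p-value among them (log2 fold change -0.41, adjusted p = 0.427 in edgeR's quasi-likelihood test), followed by Traf6 (0.48) and Birc3 (0.24). The 20 other inhibitors were evenly split, 10 above and 10 below 0. Pdlim2, which promotes the nuclear breakdown of RelA, had 54.3, 51.1 and 45.5 CPM in EMT6-P and 35.1, 39.2 and 32.3 CPM in EMT6-PTR. Like Rela, it lay lower in every resistant tumor (log2 fold change -0.50, SE 0.14, adjusted p = 0.421, edgeR's quasi-likelihood test). The ubiquitin ligase Itch was higher in all 3 (0.41), and Tax1bp1, an adaptor of A20, had 0.30.

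Genes known as NF-κB targets had no common direction between the resistant and parental tumors. Of 37 tested, 20 lay above and 17 below 0, with a median of 0.08, where 52.3% of all genes lay above 0. An unadjusted p under 0.05 was found for 0 of the 37, beside 11.4% of all genes. The smallest p-values were those of the acute phase gene Saa3 (log2 fold change 1.37), the nitric oxide synthase Nos2 (1.75) and Birc3 (0.24), and none of the 3 passed. EMT6-PTR replicate 3 was the lowest of the 6 primary tumors for 26 of the 37, beside 34.5% of all genes and 9 of the 10 members. In the metastasis 30 of 40 targets were at least 2-fold above the resistant mean, beside 18.7% of all genes. At least 2-fold below were 2, beside 9.3%, and the median difference was 2.03 on the log2 scale. Also among the 30, and named after their values were seen, were Ccl20, Sele and Il12b. Their counts were too low to be tested between the primary tumors. The following were chosen after their values were seen. The neutrophil chemokine Cxcl2 had 802.2 CPM in the metastasis against 1.41 to 12.9 in the primary tumors, the cytokine Il1b had 1238 against 2.34 to 65.5 CPM, and the adhesion molecule Icam1 had 737.3 against 8.68 to 28.0 CPM. Ptgs2 (-1.12) and Plau (-1.05) were the 2 targets at least 2-fold lower. The inhibitor Nfkbid, which encodes the atypical protein IκBNS, had 46.6 CPM against 0.625 to 2.34 CPM, a difference of 5.08 on the log2 scale and larger than that of any member.

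For each member the pathway gene with the most similar pattern was found as the one with the smallest root mean square difference between centered log2 CPM over the 7 libraries, among the 123 tested genes. For Nfkb1 this was Rnf31, a subunit of the linear ubiquitin ligase complex, at 0.10, for Rela Pdlim2 at 0.14, for Rel the transcription factor Irf1 at 0.16 and for Relb the TBK1-binding adaptor Tbkbp1 at 0.22. Traf1 was nearest to both members that stayed level in the metastasis, Nfkb2 (0.18) and Nfkbie (0.27), and it had 44.3, 39.8 and 37.9 CPM in EMT6-P, 41.0, 30.6 and 16.0 CPM in EMT6-PTR and 27.9 CPM in the metastasis. Gadd45b was nearest to Nfkbia (0.29) and Bcl3 (0.38), Ier3 to Tnfaip3 (0.30) and Irak3 to Nfkbiz (0.32). These 3 genes were at 104.4, 974.3 and 19.5 CPM in the metastasis, each above all its primary tumors. The metastasis counted in the match, so a shared pattern there follows in part from how the genes were picked. The differences of these 4 members from their nearest genes were thus wider than those of the subunits, as was their own spread over the 7 libraries, with SDs of 0.93 to 1.25 on the log2 scale for Nfkbia, Nfkbiz, Tnfaip3 and Bcl3 against 0.36 to 0.60 for the 5 subunits.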

How the data were processed

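Stranded libraries of polyadenylated RNA were sequenced from 6 primary tumors (3 EMT6-P, 3 EMT6-PTR) and 1 metastasis. The authors aligned reads to GRCm38 with STAR and ran RSEM to estimate the counts. The submitters' processing notes give FastQC 0.11.5, STAR 2.6.0a and RSEM 1.3.1. The deposited values are these estimated counts, not normalized, of which 13.5% to 15.6% per library are fractional, and RSEM divides reads shared between similar genes by estimation. Totals per library were 20430110 to 25213472. Gene identifiers were matched to GENCODE M21 of the same assembly (53360 of 53465 with a symbol and position).

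Counts were rounded. After filterByExpr, upper-quartile factors were applied and genes were tested between the 6 primary tumors with edgeR 4.0.16 (quasi-likelihood test, group as the only term, R 4.3.3), with Benjamini-Hochberg adjustment over all tested genes and a threshold of 0.05. The SE is the size of the log2 fold change divided by the square root of F. The labels list the replicates of a group as separate samples, but the study counts replicates as technical where nothing else is stated, and nothing else is stated for these libraries. SDs and p-values therefore measure the spread between libraries, which may be technical. CPM used the scale of all 7 libraries and log2 values a prior count of 2. Shares for the metastasis are over the 18619 genes that passed filterByExpr with the metastasis as a group of its own. Enough counts in 1 library could satisfy that filter. The metastasis was described without a test. Ratios were compared by exact permutation tests. Levels per length used the union of GENCODE exons. Alternatives were TMM factors, DESeq2 1.42.0, limma-voom (limma 3.58.1), no filter, a minimum of 10 counts per sample, the metastasis added as a group, the replicate number as a block, leaving out each tumor, and a prior count of 0.5. Scripts were tested on simulated data. Tables and plots used Python 3.11.15, pandas 2.3.3 and matplotlib 3.10.9.

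The members and the gene lists were chosen with earlier results of these data known. Genes named are the 10 members, up to 3 genes per pathway list with the smallest unadjusted p, the pathway gene nearest to each member, and the gene of highest mean level over the primary tumors in each marker list. Col1a1, Col3a1, Thy1, Scgb1a1, Jchain, C1qc, Emcn and the epithelial markers other than Krt8 were named after their values were seen. So were the hemoglobin genes, whose near-identical copies can share reads, and any other gene is marked so.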

Additional observations from a re-analysis of the deposited data

How the results depend on the processing

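No member passed an adjusted p of 0.05 in any of the fits run, and the smallest adjusted p of a member ranged from 0.133 without EMT6-PTR replicate 3 to 0.865 without EMT6-P replicate 1. Over all genes, DESeq2 called 138 higher and 143 lower where edgeR's quasi-likelihood test called 0, and the cause was not tested. The count of members with an unadjusted p under 0.05 was 1, against 0 with at least 10 counts in every sample. It was 0 to 5 when each tumor was left out (5 without EMT6-PTR replicate 3). Without that tumor 3234 of 15941 genes had such a p in edgeR's quasi-likelihood test, against 1786 of 15645 with all primary tumors. Leaving out each tumor turned the sign of Nfkbia (-0.16 to 0.36, negative without EMT6-PTR replicate 1), Nfkbie (-0.70 to 0.045) and Bcl3 (-0.48 to 0.033), the latter both positive without EMT6-PTR replicate 3. It also moved the Relb to Rela difference (-0.12 to 0.23) and the medians of the kinases (0.050 to 0.25), receptors (0.058 to 0.21) and ligands (-0.26 to 0.42). For the kinases limma-voom gave 0.13. The median over the 10 members ran from -0.32 to 0.20 and was positive only without EMT6-PTR replicate 3. That over the targets ran from -0.20 to 0.29. With replicate numbers as a block, 2 members had an unadjusted p under 0.05 and 1268 genes in all, against 1786. Deviations of same-numbered tumors correlated across genes at 0.26, 0.25 and 0.039, and EMT6-P replicate 3 correlated better with EMT6-PTR replicate 1 (0.097), so the numbers were not taken as pairing. The other 362 values kept their direction and their side of the threshold, or moved by less than the spread. They include those of the member and target medians. Precision was limited by 3 libraries a group, a dispersion of 0.246 in EMT6-PTR and a single metastasis.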

Other observations

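A list of 10 immediate early genes, chosen after the values of the members were seen, holds transcripts that many cells raise within minutes of a stimulus. In the metastasis 9 of the 10 were at least 2-fold above the mean of the EMT6-PTR tumors, beside 18.7% of all genes, with a median difference of 1.94 on the log2 scale. Their summed level was 434.9 to 731.3 CPM in the EMT6-P tumors, 567.9, 737.3 and 271.3 CPM in EMT6-PTR replicates 1 to 3 and 1983 CPM in the metastasis. The sum was thus lowest in EMT6-PTR replicate 3 and highest in the metastasis. Most of the NF-κB members were also lowest and highest in these libraries. EMT6-PTR replicate 3 was the lowest of the 6 primary tumors for 7 of the 10 immediate early genes, beside 34.5% of all genes. A link between this list and the members was not tested. In the comparison of the primary tumors 4 of the 10 lay above 0, beside 52.3% of all genes, with a median log2 fold change of -0.15. Nr4a1, an orphan nuclear receptor, lay higher in all 3 resistant tumors (log2 fold change 1.36, SE 0.40, adjusted p = 0.421, edgeR's quasi-likelihood test), and Ier2 lay lower in all 3 (-0.69, SE 0.32, adjusted p = 0.459 in the same edgeR test).

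The T and NK cell markers, of which Lck was the highest over the primary tumors, summed to 9.13 to 13.6 CPM in EMT6-P, to 11.8, 31.7 and 11.4 CPM in EMT6-PTR and to 47.0 CPM in the metastasis. The B and plasma cell markers, of which Cd79a was the highest over the primary tumors and Jchain in the metastasis, summed to 0.843 to 1.46 CPM in EMT6-P, to 1.26, 15.4 and 7.23 CPM in EMT6-PTR and to 51.8 CPM in the metastasis. The dendritic cell markers, of which Itgax was the highest over the primary tumors, summed to 32.3 to 44.5 CPM in EMT6-P, to 41.8, 83.7 and 18.0 CPM in EMT6-PTR and to 39.3 CPM in the metastasis. EMT6-PTR replicate 2 held the most of all 3 lists among the primary tumors. Of the members, Nfkb1, Rel and Nfkbiz were highest in that tumor, and Nfkb2, Nfkbia, Nfkbie and Tnfaip3 in EMT6-PTR replicate 1. Rela, Relb and Bcl3 were highest in an EMT6-P tumor. The part of these marker lists in the levels of the members was not tested. Skeletal muscle markers, led by Acta1, summed to 3560 CPM and adipocyte markers, led by Car3, to 220.6 CPM in EMT6-PTR replicate 1, against at most 618.7 and 30.7 CPM in the other libraries.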
